A study of Mus musculus with 28 samples.

Results

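Fenofibrate, a fibrate used to lower blood lipids and a known agonist of PPAR alpha, was given to bone marrow-derived macrophages that lack Irgm1, an interferon-inducible GTPase with roles in autophagy and mitochondrial quality control. The comparison set 4 Irgm1KO fenofibrate libraries against 4 Irgm1KO control libraries, 8 of the 28 libraries of the series, and was read over all 15429 genes that passed a filter on low counts out of 56941 genes in the table. The cells came from Irgm1-/- mice backcrossed to C57BL/6. Marrow of male and female animals aged 2 to 4 months was cultured for 6 days in medium with L929 cell-conditioned medium and then kept for 24 h without it. The concentration listed for fenofibrate was 50 µM. The labels give neither the length of the exposure nor what control cells received, and they do not say whether the numbered libraries were separate animals. The p-values therefore measure only the spread from library to library, which may not stand for that between animals. Xist and Y-linked counts, given below, differed between libraries of each Irgm1KO group, so these were not all from the same animal. Wild-type (WT) cells, with 4 fenofibrate and 4 control libraries in the same experiment, carry no deletion. Their libraries entered the same fit, and so shared in its filter, scaling and estimate of spread. Otherwise they were used only to show where the Irgm1KO response differed.

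Type I interferons are secreted proteins that act through a cell-surface receptor and the JAK-STAT pathway to induce a broad set of antiviral genes. Macrophages also produce cytokines under NF-kB, which induces its own inhibitors as feedback. Their lipid metabolism is run by sterol-sensing SREBP factors, which induce cholesterol and fatty acid synthesis, by LXR receptors, which respond to oxysterols and induce sterol export, and by PPAR receptors, which respond to fatty acids and induce fatty acid binding, storage and oxidation. Fenofibrate is known as a ligand of PPAR alpha in liver, where it raises peroxisomal and mitochondrial fatty acid oxidation genes.

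The libraries held between 82362311 and 95326395 counts in the fenofibrate group and between 83335411 and 120844616 in the control group. Levels are in CPM (counts scaled to a common library size, with TMM factors), given for Irgm1KO cells unless WT is named, and "called" means that the quasi-likelihood test of edgeR gave an adjusted p under 0.05. Fold changes are log2 ratios of fenofibrate over control with standard errors (SE). Pair 3 of Irgm1KO had low Xist and high Y-linked counts in both of its libraries, and the other 3 pairs had the reverse. This difference was therefore balanced between the Irgm1KO groups. In WT, pairs 2 and 4 had low Xist and high Y-linked counts, so the genotypes were not matched in it. A gene without a symbol took between 2.17% and 8.13% of counts in fenofibrate libraries and between 1.26% and 3.60% in control libraries. Fenofibrate library 2 stood outside the other 3 of its group for 9 of the genes named here. Irgm1 itself had 1017, 1144, 1093 and 1048 CPM in fenofibrate libraries, against 1013, 1040.3, 1029 and 991 CPM in control libraries. The gene was not among those called (log2 fold change 0.08, SE 0.0539, adjusted p = 0.25), and WT libraries held 1588 ± 86.9 CPM with fenofibrate and 1603 ± 71.9 CPM in control. Because counts per gene include exons that a deletion may leave in place, this level neither checks the labels nor shows an intact transcript.

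A large share of the measured genes responded. Of 15429 genes, 3626 were called higher (23.5%) and 3427 lower (22.2%) with fenofibrate, of which 577 were higher (3.74%) and 705 lower (4.57%) by more than 2-fold. Counting either direction, 7053 were called (45.7%). The 4 fenofibrate libraries did not overlap with the 4 control libraries for 6397 genes (41.5%). These shares are the background against which the counts of each gene list are set. Most tested interferon-stimulated genes (60 of 64), cytokines (27 of 38), NF-kB targets (26 of 28) and heat-shock chaperones (17 of 21) fell. Most tested cholesterol synthesis genes (27 of 29) and cell-cycle genes (33 of 42) and all 7 tested mitochondrially encoded transcripts rose. In bulk RNA, fewer cells of a type and less RNA per cell cannot be told apart.

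**Figure D1:**
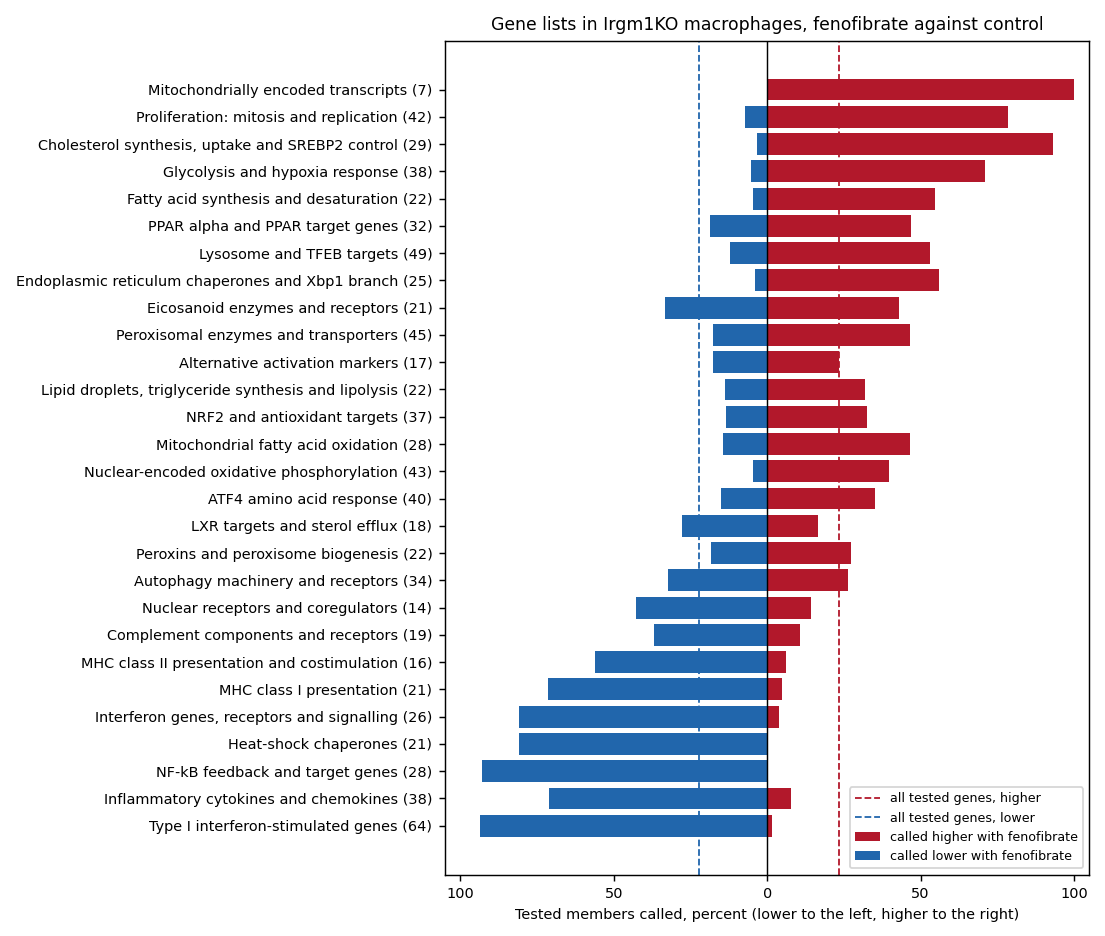
Share of the tested members of 28 gene lists called higher (red, right) or lower (blue, left) in Irgm1KO fenofibrate against control libraries, with the number tested in brackets and dashed lines at 23.5% and 22.2%, the shares over all tested genes. Lists are ordered by median log2 fold change, from interferon-stimulated genes at the bottom (1 higher and 60 lower of 64) to mitochondrially encoded transcripts at the top (7 of 7 higher).

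Type I interferon-stimulated genes had the lowest median of the 28 pathway lists. Of 64 tested interferon-stimulated genes, 60 fell and 1 rose, with a median log2 fold change of -1.17, against a median of 0.01 over all tested genes. Mx1, an antiviral GTPase, had 46.3, 39.4, 30.5 and 43.5 CPM in fenofibrate libraries, against 499, 366, 370.0 and 479 CPM in control libraries. Every fenofibrate library lay far below every control library, with no overlap (log2 fold change -3.42, SE 0.188, adjusted p = 4.5e-09). Its relative Mx2 had 5.37 ± 1.09 CPM with fenofibrate and 57.2 ± 10.04 CPM in control (SD, n = 4), a log2 fold change of -3.42, SE 0.17. Isg15, a ubiquitin-like modifier that is attached to proteins in infected cells, had 85.3, 96.2, 65.1 and 90.6 CPM in fenofibrate libraries, against 526, 428, 356 and 502 CPM in control libraries. All fenofibrate libraries were low and all control libraries high, without overlap (log2 fold change -2.43, SE 0.177, adjusted p = 5.4e-08).

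Sequences upstream of interferon-inducible genes are shown first because this list had the lowest median; Apol9b is not in the list and was among the 12 largest falls. Windows of 250 bases before the annotated transcript start (RefSeq, build GRCm38.p6, printed 5′ to 3′ on the gene's strand) were searched on both strands for 9 motifs. In Isg15 (chr4:156200819-156201068, minus strand), Ifit1 (chr19:34640639-34640888, plus strand) and Apol9b (chr15:77728871-77729120, plus strand), capitals mark matches to GAAANN followed by GAAA, or to the reverse complement, the core of the interferon-stimulated response element that STAT and IRF factors bind, and in Apol9b also an AP-1 site (TGANTCA).
Isg15: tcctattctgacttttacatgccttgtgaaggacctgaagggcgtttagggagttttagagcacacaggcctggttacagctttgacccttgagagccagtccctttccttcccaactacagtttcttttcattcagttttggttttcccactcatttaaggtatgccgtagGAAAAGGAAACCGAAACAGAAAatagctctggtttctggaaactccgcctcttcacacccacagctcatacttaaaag
Ifit1: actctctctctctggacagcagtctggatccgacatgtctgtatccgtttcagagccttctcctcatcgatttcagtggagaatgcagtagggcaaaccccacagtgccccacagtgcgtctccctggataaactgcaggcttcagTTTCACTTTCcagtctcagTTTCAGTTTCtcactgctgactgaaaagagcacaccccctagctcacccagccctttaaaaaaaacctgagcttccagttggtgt
Apol9b: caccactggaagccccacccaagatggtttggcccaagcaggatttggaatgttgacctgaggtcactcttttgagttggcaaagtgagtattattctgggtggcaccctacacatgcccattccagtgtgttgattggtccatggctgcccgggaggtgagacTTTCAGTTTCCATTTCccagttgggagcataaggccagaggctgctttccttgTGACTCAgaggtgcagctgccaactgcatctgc
Of the annotated starts of Apol9b, the one whose window holds more matches is shown. In Isg15 there are 3 overlapping matches, starting 78, 72 and 66 bases before the transcript start. Ifit1 has matches at 104 and 85 bases, and Apol9b at 86 and 80 bases, with the AP-1 site apart from them at 33 bases. The core was found in 18 of the 47 lowered interferon-stimulated genes that have a window (38.3%), and in 3.50% of the 10249 tested genes that have one, counting a gene when any of its windows matched. It was found in 13.1% of 450 genes lowered over 2-fold and in 1.31% of 382 genes raised over 2-fold. AP-1 sites were in 23.4% of the 47 genes and in 5.67% of tested genes. The interferon response core and the 2 heat-shock motifs below were added after the expression data had been seen, and Isg15 and Ifit1 were chosen after their values were seen. As 60 of the 64 tested members fell, the share among the 47 describes the list rather than its response to fenofibrate. A match is a description of the letters and was not tested as a binding site.

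Across the rest of the interferon program the falls varied in size. Oasl1, which limits translation of Irf7, had 120.9 ± 18.8 CPM with fenofibrate and 628 ± 76.3 CPM in control (log2 fold change -2.38, SE 0.13, adjusted p = 3.6e-09). Ifit1, which binds viral RNA, had 180.4 ± 14.96 CPM with fenofibrate and 709 ± 56.6 CPM in control (log2 fold change -1.97, SE 0.133, adjusted p = 2.1e-08), and Irf7, the transcription factor that amplifies interferon genes, had 491 ± 64.04 CPM with fenofibrate and 1559 ± 176 CPM in control (log2 fold change -1.67, SE 0.172, adjusted p = 1.4e-06). All 4 fenofibrate libraries lay below all 4 control libraries for each of these 3 genes. Falls that were smaller or close to the list's median, yet with a narrow spread, were in Trim25, an E3 ligase of RNA sensing, with a log2 fold change of -0.68, SE 0.0422, in Nmi, an interferon-induced partner of STAT proteins (-1.04, SE 0.0558), in Tor3a (-1.24, SE 0.0779), in Herc6, an ISG15 ligase (-1.24, SE 0.0718), and in Daxx (-1.42, SE 0.0886). Among the largest falls of all genes was the member Ms4a4c (41.3 ± 12.7 CPM with fenofibrate and 491 ± 116 CPM in control, log2 fold change -3.57, SE 0.299). Others of that size were not in the list: Isg20, an interferon-inducible exonuclease (3.64 ± 0.646 CPM with fenofibrate and 48.1 ± 15.9 CPM in control, -3.72, SE 0.258), and Hsh2d (0.78 ± 0.185 CPM with fenofibrate and 6.63 ± 1.84 CPM in control, -3.09, SE 0.223). Apol9a and Apol9b, which share nearly all their sequence so that counts may be mixed between them, had log2 fold changes of -3.61, SE 0.219 and -3.53, SE 0.278. Members of the list outside this pattern, named after their values were seen, were Iigp1, an immunity-related GTPase of the same family as Irgm1, which rose (0.21, SE 0.0685) but was not called without fenofibrate library 3 or 4 or control library 1 or 4 (0.17 to 0.19), and Gbp2 and Gbp7, guanylate-binding proteins, which were not called (6774 ± 394 CPM with fenofibrate and 6406 ± 318 CPM in control for Gbp2 and 397 ± 53.2 CPM with fenofibrate and 440.4 ± 13.6 CPM in control for Gbp7).

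The interferon transcript itself and the signalling genes were lower too. Ifnb1, which encodes interferon beta, had 0.175, 0.0939, 0.0719 and 0.216 CPM in fenofibrate libraries, against 1.95, 1.09, 1.13 and 2.02 CPM in control libraries. It was scarce in every library, and the highest fenofibrate library lay below the lowest control library (log2 fold change -3.49, SE 0.351, adjusted p = 7.4e-07). Among 26 tested interferon genes, receptors and signalling genes, 21 fell and 1 rose (median -0.42). The double-stranded RNA receptor gene Tlr3 had 52.3 ± 8.02 CPM with fenofibrate and 145 ± 18.2 CPM in control (-1.47, SE 0.103), and Myd88, the adaptor of most Toll-like receptors, had 94.1 ± 5.21 CPM with fenofibrate and 164 ± 7.49 CPM in control (-0.80, SE 0.0613). Smaller falls were measured for the kinase Jak2 (-0.56, SE 0.0495), the factors Irf5 (-0.55, SE 0.0633) and Irf2 (-0.47, SE 0.0497), and Socs1, a feedback inhibitor of JAK kinases (-0.63, SE 0.0711). Irf8, the single member that rose, was named after its value was seen (0.15, SE 0.0516). It was not called when any of 7 of the 8 libraries was left out, all but fenofibrate library 4, or without pair 3 (0.11 to 0.15), and 0 members of the list rose then.

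Many antigen presentation genes that interferons induce moved in the same direction. Of 21 tested genes of MHC class I presentation, 15 fell and 1 rose (median -0.39). The member that rose was Calr, an endoplasmic reticulum chaperone. The list as a whole did not separate the groups. It summed to between 23230 and 27080 CPM in fenofibrate libraries and between 24720 and 26480 CPM in control libraries. Psmb9, an immunoproteasome subunit, had 156 ± 14.5 CPM with fenofibrate and 225 ± 16.4 CPM in control (log2 fold change -0.53, SE 0.0681, adjusted p = 1e-05), and Tap2, a subunit of the peptide transporter, had 269.9 ± 32.98 CPM with fenofibrate and 391 ± 20.3 CPM in control (-0.54, SE 0.0761). Nlrc5, the activator of class I genes, was at -0.61, SE 0.0608. H2-Q4, H2-Q6 and H2-Q7, nonclassical class I genes with near-identical copies, were at -0.93, SE 0.0764, -1.69, SE 0.135 and -1.21, SE 0.164. In the list of MHC class II and costimulation, 9 of 16 fell and 1 rose (11 and 2 with a replicate block). None rose with DESeq2 size factors (10 fell), without pair 3 (7 fell), without fenofibrate library 2, 3 or 4, or without control library 1, 3 or 4 (7 to 10 fell). Cd40, a costimulatory receptor, had 22.03, 28.5, 21.1 and 26.3 CPM in fenofibrate libraries, against 149, 125, 108 and 141 CPM in control libraries, with no overlap (log2 fold change -2.41, SE 0.146, adjusted p = 1e-08), and Cd86 had 84.8 ± 2.44 CPM with fenofibrate and 200.5 ± 13.2 CPM in control (-1.24, SE 0.0727). The class II genes H2-Ab1 (-0.47, SE 0.103) and Cd74 (-0.44, SE 0.118) and the checkpoint ligand Cd274 (-0.37, SE 0.0574) fell less. Sums of the class II and costimulation list overlapped, at 14120 to 16420 CPM with fenofibrate and 15650 to 17090 CPM in control.

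Most inflammatory cytokines and chemokines fell too. Of 38 tested, 27 fell and 3 rose, with a median log2 fold change of -1.04. Cxcl10, a T cell-attracting chemokine induced by interferon, had 178, 183, 146 and 196 CPM in fenofibrate libraries, against 1375, 1134, 1076 and 1324 CPM in control libraries. Every fenofibrate library was below every control library (log2 fold change -2.805, SE 0.174, adjusted p = 1.3e-08). Cxcl11, which shares its receptor, had 4.15 ± 1.06 CPM with fenofibrate and 90.8 ± 15.9 CPM in control (log2 fold change -4.45, SE 0.283, adjusted p = 2.5e-08). The monocyte attractants Ccl2 and Ccl7 had 33.4 ± 4.13 CPM with fenofibrate and 94.7 ± 17.3 CPM in control (-1.504, SE 0.159) and 8.88 ± 2.30 CPM with fenofibrate and 50.98 ± 11.8 CPM in control (-2.52, SE 0.215).

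Tumor necrosis factor and interleukin genes belong to the same list. Tnf had 22.3, 30.9, 24.6 and 24.7 CPM in fenofibrate libraries, against 62.9, 62.9, 59.5 and 60.9 CPM in control libraries, with no overlap (log2 fold change -1.26, SE 0.0851, adjusted p = 1.5e-08). Il1b was scarce, with 0.152 ± 0.0774 CPM with fenofibrate and 1.27 ± 0.269 CPM in control (-3.05, SE 0.372), and the interleukin-1 receptor antagonist Il1rn had 40.2 ± 8.03 CPM with fenofibrate and 156 ± 33.7 CPM in control (-1.96, SE 0.235). Ccl5 (-2.01, SE 0.212), Il15 (-1.02, SE 0.0885) and the death ligand Tnfsf10 (-1.74, SE 0.149) fell as well. The members that rose were named after their values were seen, and were Spp1, which encodes osteopontin (1596 ± 141 CPM with fenofibrate and 963 ± 58.05 CPM in control, 0.73, SE 0.0902), the angiogenic factor Vegfa (0.49, SE 0.0836) and Ccl6 (0.73, SE 0.198). The list also held the nitric oxide synthase gene Nos2, which had 44.8, 88.6, 65.04 and 76.8 CPM in fenofibrate libraries, against 272, 274, 186 and 273 CPM in control libraries; control library 3 was lowest of its group and still above every fenofibrate library (log2 fold change -1.87, SE 0.218, adjusted p = 7e-06). Ptgs2, which makes prostaglandin precursors, had 83.96 ± 15.6 CPM with fenofibrate and 152 ± 19.1 CPM in control (-0.85, SE 0.139).

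NF-kB feedback and target genes showed no rise among 28 tested members, of which 26 fell (median -0.99). Nfkbia, the inhibitor that holds NF-kB in the cytoplasm, had 45.5, 62.6, 52.7 and 50.3 CPM in fenofibrate libraries, against 137, 127, 115 and 127 CPM in control libraries. The groups did not overlap (log2 fold change -1.26, SE 0.0884, adjusted p = 2.1e-08). A second inhibitor gene, Nfkbie, was at -1.79, SE 0.149, the survival factor Birc3 at -1.33, SE 0.0876, the adaptor Traf2 at -0.996, SE 0.0755, and the mitochondrial superoxide dismutase Sod2 at -1.09, SE 0.0984. Junb and Gadd45b, early response genes, were at -1.202, SE 0.0935 and -1.51, SE 0.132.

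Heat-shock chaperones, which fold proteins and are induced by heat-shock factor, also fell without a rise: 17 of 21 tested fell (median -0.60). Hspa1b, an inducible Hsp70, had 2.12, 3.63, 3.06 and 3.43 CPM in fenofibrate libraries, against 61.3, 70.6, 51.5 and 66.01 CPM in control libraries. The control libraries stood far above the fenofibrate libraries (log2 fold change -4.35, SE 0.275, adjusted p = 2.2e-08). Its near-identical copy Hspa1a had 3.42 ± 0.71 CPM with fenofibrate and 41.9 ± 3.06 CPM in control (-3.61, SE 0.258), and reads of the pair may not be told apart. The window upstream of Hspa1b (chr17:34959239-34959488, minus strand) is shown because it carries a match to GAANNTTC, the paired unit of a heat-shock element, in capitals.
Hspa1b: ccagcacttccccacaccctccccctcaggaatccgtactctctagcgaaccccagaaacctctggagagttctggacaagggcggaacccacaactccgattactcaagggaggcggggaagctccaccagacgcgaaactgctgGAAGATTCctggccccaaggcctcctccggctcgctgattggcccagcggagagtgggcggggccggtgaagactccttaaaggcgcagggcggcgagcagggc
The match starts 104 bases before the transcript start. GAANNTTC was in 5 of 13 lowered chaperone genes with a window (38.5%) and in 6.19% of tested genes, and the longer form with NNGAA added to it in 2 of 13 (15.4%) and in 0.449%. Most of the list fell, so these shares also describe the list rather than its response. Abundant family members fell as well. Hspa8, the constitutive Hsp70, had 1557, 1695, 1508 and 1608 CPM in fenofibrate libraries, against 3854, 3927, 3865 and 4356 CPM in control libraries, without overlap (log2 fold change -1.33, SE 0.059, adjusted p = 4.1e-10). Hsp90aa1 had 239 ± 10.3 CPM with fenofibrate and 446 ± 15.8 CPM in control (-0.90, SE 0.0473), and Hsp90ab1 had 1655 ± 64.6 CPM with fenofibrate and 2774 ± 112 CPM in control (-0.75, SE 0.0525). The co-chaperones Hsph1 (-1.23, SE 0.0877), Dnaja1 (-1.31, SE 0.0513) and Dnajb1 (-0.71, SE 0.0515) fell too.

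**Figure D2:**
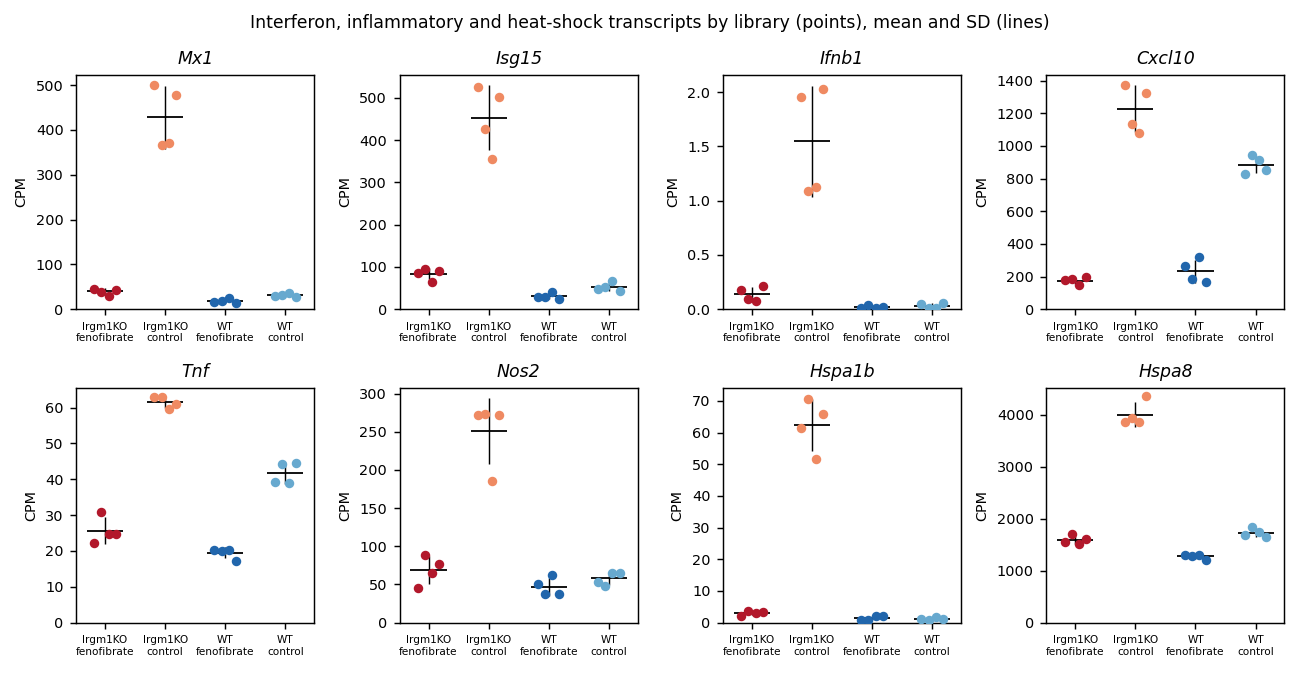
CPM of 8 transcripts in each library (points) of the 4 groups, with group means and SD (lines); each panel has its own linear axis from 0. The Irgm1KO fenofibrate libraries sit below the Irgm1KO control libraries in all 8 panels, with Mx1 averaging 39.9 CPM with fenofibrate against 428 CPM in control and Hspa1b 3.06 CPM with fenofibrate against 62.4 CPM in control.

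Genes of cholesterol synthesis rose almost throughout. Of 29 tested genes of cholesterol synthesis, uptake and SREBP2 control, 27 rose and 1 fell (27 and 2 without fenofibrate library 2), with a median log2 fold change of 0.45. Squalene epoxidase, Sqle, had 23.6, 25.3, 24.6 and 27.05 CPM in fenofibrate libraries, against 7.50, 7.75, 8.27 and 6.00 CPM in control libraries. Every fenofibrate library was high and every control library low, without overlap (log2 fold change 1.77, SE 0.131, adjusted p = 4.2e-08). The middle enzymes Fdps (1.15, SE 0.0811), Fdft1 (0.98, SE 0.0789) and Cyp51 (1.44, SE 0.114) and the sterol carrier Stard4 (1.73, SE 0.167) rose too.

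Other members of the list rose less. Hmgcs1 was at 0.36, SE 0.0782, the sensor gene Insig1 at 0.23, SE 0.0817 (0.18 to 0.25 and not called without fenofibrate library 1 or 4, control library 2 or 4 or pair 3) and the factor Srebf2 at 0.70, SE 0.0668. The member that fell was Mylip, an LXR target that encodes a ubiquitin ligase, with 13.03, 15.4, 17.9 and 14.2 CPM in fenofibrate libraries, against 48.6, 48.1, 47.7 and 45.5 CPM in control libraries and no overlap (log2 fold change -1.65, SE 0.0949, adjusted p = 3.6e-09). E-boxes (CACGTG) were in 26.3% of the 19 raised genes with a window and in 9.85% of tested genes, while ATCACN followed by CCAC, a sterol response element, was in 0 of the 19 and in 0.185% of tested genes. Nearly all of the list rose, so here too the shares describe the list rather than its response.

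LXR targets changed in both directions, in numbers close to the background. Of 18 tested, 3 rose and 5 fell (5 and 6 with a replicate block), where 23.5% of all tested genes rose and 22.2% fell. Abca1, the exporter that loads cholesterol onto apolipoprotein A-I, had 8.97, 6.75, 7.63 and 8.09 CPM in fenofibrate libraries, against 70.2, 68.4, 58.7 and 60.8 CPM in control libraries. The fenofibrate libraries lay far below the controls (log2 fold change -3.04, SE 0.212, adjusted p = 4.6e-08). Abcg1, which exports sterol to high-density lipoprotein, had 212 ± 19.3 CPM with fenofibrate and 398 ± 36.6 CPM in control (-0.91, SE 0.148), Nr1h3, which encodes LXR alpha, 20.3 ± 5.34 CPM with fenofibrate and 61.4 ± 7.26 CPM in control (-1.59, SE 0.162), and Ch25h, which makes an oxysterol, 19.9 ± 4.54 CPM with fenofibrate and 106 ± 28.8 CPM in control (-2.41, SE 0.275). The rises were in Scd2, Abca7 (0.60, SE 0.0712) and Smpdl3a (0.37, SE 0.112, not called without fenofibrate library 3 or control library 1 or 4, at 0.29 to 0.31).

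Of 22 fatty acid synthesis and desaturation genes, 12 rose and 1 fell, Acsl1 (13 and 2 with a replicate block, 12 and 3 without fenofibrate library 4, 11 and 2 without control library 2). The list summed to less with fenofibrate (1312 to 1433 CPM) than in control (1698 to 1892 CPM). Fads2, the delta-6 desaturase of polyunsaturated fatty acids, had 13.6, 9.45, 7.17 and 9.79 CPM in fenofibrate libraries, against 2.68, 2.35, 2.36 and 2.42 CPM in control libraries; fenofibrate library 1 was highest and the groups did not overlap (log2 fold change 2.03, SE 0.274, adjusted p = 2.2e-05). Scd2, a stearoyl-CoA desaturase, had 39.7 ± 7.97 CPM with fenofibrate and 9.71 ± 1.58 CPM in control (log2 fold change 2.03, SE 0.195, adjusted p = 9.2e-07), while its relative Scd1 was scarce and was not called (0.281 ± 0.0894 CPM with fenofibrate and 0.214 ± 0.168 CPM in control). Fads1 (0.83, SE 0.0559), Fads3 (0.91, SE 0.104), fatty acid synthase Fasn (59.4 ± 7.38 CPM with fenofibrate and 32.7 ± 0.965 CPM in control, 0.86, SE 0.0842), Acaca, which makes malonyl-CoA (0.63, SE 0.0866), and the elongase Elovl7 (1.64, SE 0.211) rose. Srebf1, the factor that induces them in liver, did not pass the threshold (log2 fold change -0.06, SE 0.0487, adjusted p = 0.336). Acsl1, which activates long-chain fatty acids, had 273, 421, 407 and 374 CPM in fenofibrate libraries, against 876, 1071, 889.7 and 907 CPM in control libraries, all fenofibrate libraries lying below the controls (log2 fold change -1.34, SE 0.135, adjusted p = 9.8e-07). The Fads2 window (chr19:10101504-10101753, minus strand), shown as that of a rise that differed from WT, held none of the 9 motifs.
Fads2: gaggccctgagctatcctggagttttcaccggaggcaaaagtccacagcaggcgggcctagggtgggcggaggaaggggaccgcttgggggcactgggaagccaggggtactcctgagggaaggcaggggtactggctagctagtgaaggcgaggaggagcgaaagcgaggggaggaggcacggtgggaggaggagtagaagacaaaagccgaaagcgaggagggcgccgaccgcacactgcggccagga

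The targets by which fenofibrate is known in liver changed in both directions. Ppara held 6 counts over the 16 libraries of the experiment and Pdk4, a classical PPAR target, 4, so neither was tested. Ppard had 24.3 ± 2.13 CPM with fenofibrate and 20.9 ± 1.24 CPM in control (0.21, SE 0.0664), and was not called without fenofibrate library 2 or control library 1 or 2 (0.15 to 0.19). Pparg was not called (31.2 ± 3.37 CPM with fenofibrate and 33.98 ± 2.54 CPM in control), except with a replicate block (-0.12). The partner receptor Rxra was at 0.62, SE 0.191, and was not called without fenofibrate library 4, control library 2 or pair 3 or with no filter on low counts (0.51 to 0.62). Of 32 tested PPAR target genes, 15 rose and 6 fell (15 and 3 without control library 3, 16 and 3 without pair 3), with a median of 0.29. In the list of 14 nuclear receptors and coregulators 2 rose and 6 fell. The 2 that rose, Ppard and Rxra, became 1 without fenofibrate library 4 or control library 1, and 0 without control library 2. Without pair 3, 1 rose and 4 fell.

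Fatty acid binding genes were among the PPAR targets that rose. Fabp5, a binding protein that delivers fatty acids to PPAR delta, had 287, 357, 359 and 389.8 CPM in fenofibrate libraries, against 118, 131, 133 and 133 CPM in control libraries. All fenofibrate libraries lay above all control libraries (log2 fold change 1.44, SE 0.125, adjusted p = 2.2e-07). Fabp4 had 24.9 ± 4.50 CPM with fenofibrate and 12.9 ± 1.67 CPM in control (0.96, SE 0.185), and Acot1, an acyl-CoA thioesterase at a low level, 0.726 ± 0.0903 CPM with fenofibrate and 0.112 ± 0.0315 CPM in control (2.69, SE 0.245). Other PPAR targets known from liver went the other way or were not called. Plin2, which coats lipid droplets, had 521, 692, 604 and 547 CPM in fenofibrate libraries, against 629, 758, 699.6 and 665 CPM in control libraries, with overlapping groups (log2 fold change -0.22, SE 0.0845, adjusted p = 0.0441). It was not called when any of fenofibrate libraries 1, 3 and 4, control libraries 2 and 3 or pair 3 was left out (-0.23 to -0.18), nor with upper-quartile scaling (-0.20), with no filter on low counts or in the Irgm1KO libraries alone (-0.22 in both).

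Cpt1a, which admits fatty acids to mitochondria, had 234 ± 6.40 CPM with fenofibrate and 263 ± 15.05 CPM in control (log2 fold change -0.17, SE 0.0546, adjusted p = 0.0183), and was not called without control library 3 (-0.15) or pair 3 (-0.16). Angptl4, an inhibitor of lipoprotein lipase, had 1.40 ± 0.313 CPM with fenofibrate and 2.11 ± 0.304 CPM in control (-0.59, SE 0.197), and was not called without fenofibrate library 3 or 4, control library 3 or pair 3 (-0.52 to -0.44). Cd36, a scavenger receptor for fatty acids and oxidized lipoprotein, had 1036, 929, 958 and 791 CPM in fenofibrate libraries, against 583, 755, 635 and 439 CPM in control libraries. These groups did not overlap, but Cd36 did not pass the threshold (log2 fold change 0.62, SE 0.256, adjusted p = 0.0605), except with a replicate block, in the Irgm1KO libraries alone, with at least 5 CPM in 4 libraries, with the DESeq2 Wald test or without control library 2 (0.61 to 0.73). The Plin2 window (chr4:86670060-86670309, minus strand), shown as that of a PPAR target that fell, held none of the 9 motifs, among them the direct repeat bound by PPAR and RXR (AGGTCA, a spacer base, AGGTCA), which was in 0.0585% of tested genes.
Plin2: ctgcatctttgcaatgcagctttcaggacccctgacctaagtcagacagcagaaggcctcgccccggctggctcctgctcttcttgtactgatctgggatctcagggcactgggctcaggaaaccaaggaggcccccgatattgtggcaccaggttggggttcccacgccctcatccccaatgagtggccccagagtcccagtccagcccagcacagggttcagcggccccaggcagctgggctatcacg

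**Figure D3:**
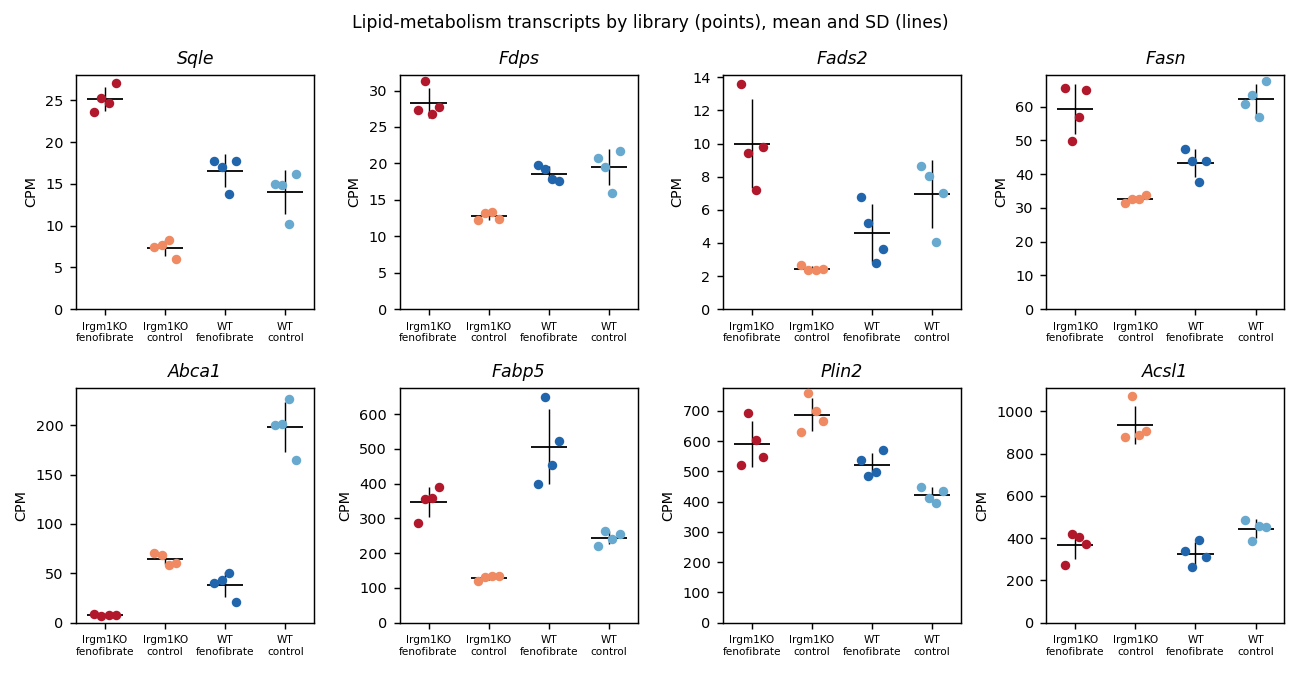
CPM of 8 lipid-metabolism transcripts in each library (points) of the 4 groups, with means and SD (lines) and linear axes from 0. Among Irgm1KO libraries, Sqle, Fdps, Fads2, Fasn and Fabp5 sit higher with fenofibrate, Abca1 and Acsl1 sit lower, and the 2 groups of Plin2 overlap (591 CPM with fenofibrate against 688 CPM in control on average).

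Oxidation genes changed in both directions. In mitochondrial fatty acid oxidation, 13 of 28 rose and 4 fell (median 0.12), with Decr1 at 0.40, SE 0.0446, Hadhb, a subunit of the trifunctional protein, at 0.30, SE 0.0431, and Etfdh at 0.34, SE 0.0468. The carnitine carrier Slc25a20 was among the members that fell (-0.33, SE 0.0518). Acsl1, given above, had the largest fall of this list (-1.34). Despite the rises, the list summed to less with fenofibrate (1810 to 1966 CPM) than in control (2328 to 2563 CPM), without overlap. Among peroxisomal enzymes and transporters, 21 of 45 rose and 8 fell (median 0.15). Their sum was also lower, at 3207 to 3419 CPM with fenofibrate and 3527 to 3874 CPM in control. Hsd17b4 was at 0.47, SE 0.0627, catalase, Cat, at 0.42, SE 0.126 (not called without pair 3, at 0.36, or with no filter on low counts, at 0.43) and the isocitrate dehydrogenase Idh1 at 0.72, SE 0.0602, while Ehhadh was not called (2.97 ± 0.404 CPM with fenofibrate and 2.29 ± 0.579 CPM in control), except with a replicate block (0.39) or without control library 1 (0.54). Peroxins were close to the background, with 6 rises and 4 falls in 22 (3 and 4 without pair 3). Pex11a, a peroxisome division gene and PPAR alpha target, had 7.05 ± 1.01 CPM with fenofibrate and 5.45 ± 0.551 CPM in control (0.37, SE 0.0956). Of 22 tested lipid droplet, triglyceride and lipolysis genes, 7 rose and 3 fell (7 and 5 without fenofibrate library 2), with the phosphatase Lpin1 at 1.08, SE 0.102, the lysosomal lipase Lipa at 0.26, SE 0.05 and the acyltransferase Dgat2 at -1.06, SE 0.212.

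Every tested mitochondrially encoded transcript rose. The mitochondrial genome encodes core subunits of the respiratory chain, and 7 of its 13 messenger RNAs passed the filter, while the other 6 held at most 27 counts each over the 16 libraries. Those 6 include complex IV and ATP synthase messengers; the cause of their low counts was not tested, and the 7 stand for only part of the mitochondrial messengers. Together they made up 1.40%, 1.40%, 1.52% and 1.43% of counts in fenofibrate libraries, against 0.724%, 0.860%, 0.860% and 0.665% in control libraries. The lowest fenofibrate library was above the highest control library, a difference of 0.662 percentage points (2-sided exact permutation test, p = 0.0286, the smallest that 4 against 4 libraries allow). A sign-flip over the 4 pairs gave 0.125, the smallest p that 4 pairs allow. Without pair 3 the difference was 0.661 percentage points with an exact permutation p = 0.1, the smallest that 3 against 3 allow.

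By gene, mt-Nd1, a complex I subunit, had 1279, 1428, 1363 and 1284 CPM in fenofibrate libraries, against 552, 755, 722 and 536 CPM in control libraries, with no overlap (log2 fold change 1.06, SE 0.1, adjusted p = 3.7e-07). The complex IV subunit mt-Co1, the most abundant of the 7, had 8593 ± 596 CPM with fenofibrate and 4871 ± 430.1 CPM in control (0.82, SE 0.0846), and mt-Cytb of complex III 1240.5 ± 53.2 CPM with fenofibrate and 639 ± 127 CPM in control (0.96, SE 0.118). The remaining complex I subunits were at 1.05, SE 0.0831 for mt-Nd2, 1.06, SE 0.102 for mt-Nd4, 0.80, SE 0.11 for mt-Nd5 and 1.05, SE 0.146 for mt-Nd6. Nuclear-encoded subunits changed less. Of 43, 17 rose and 2 fell, with a median of 0.11, and the count depended on the libraries: it was 12 and 9 without fenofibrate library 2, 15 and 1 without fenofibrate library 3, 12 and 1 without pair 3, 17 and 1 with upper-quartile scaling, and 21 and 4 with a replicate block. Cox7b rose (116 ± 11.6 CPM with fenofibrate and 74.3 ± 3.08 CPM in control, 0.65, SE 0.0604) and the cytochrome c gene Cycs fell (-0.44, SE 0.0586).

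**Figure D4:**
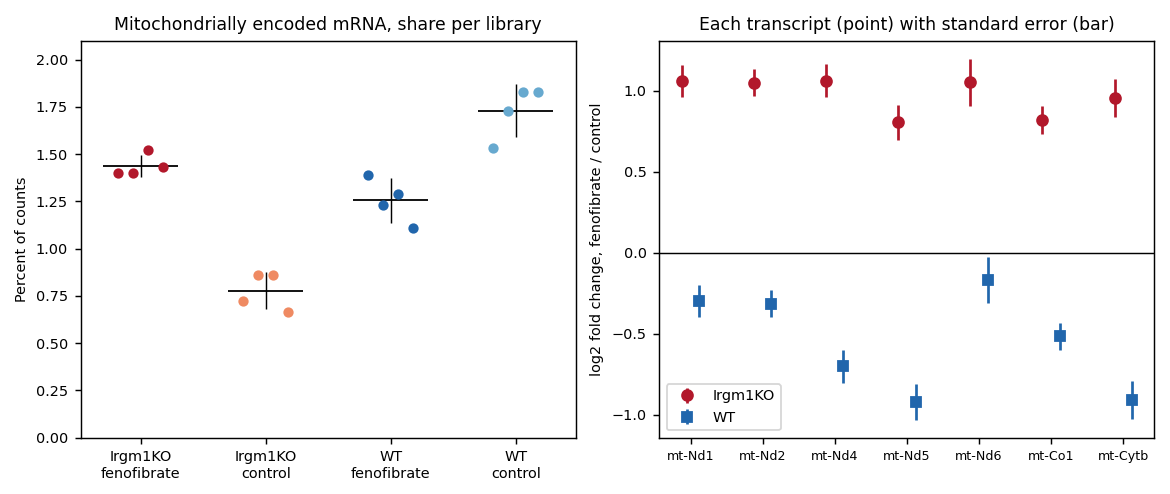
Left, share of counts on mitochondrially encoded messenger RNA per library (points) in the 4 groups, with means and SD (lines). Right, log2 fold change of fenofibrate over control with SE for each of 7 transcripts in Irgm1KO (circles) and WT (squares) cells; all 7 lie above 0 in Irgm1KO and below 0 in WT.

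Cell-cycle genes rose broadly. Of 42 tested genes of mitosis and replication, 33 rose and 3 fell (median 0.85). Kif23, a kinesin of the dividing midzone, had 61.4, 52.1, 46.9 and 54.8 CPM in fenofibrate libraries, against 21.7, 19.4, 20.98 and 21.1 CPM in control libraries. All fenofibrate libraries lay above all controls (log2 fold change 1.37, SE 0.121, adjusted p = 2.6e-07). Rrm2, which makes deoxynucleotides, had 90.8 ± 14.5 CPM with fenofibrate and 31.9 ± 1.46 CPM in control (1.51, SE 0.13), and Plk1, a mitotic kinase, 30.3 ± 4.98 CPM with fenofibrate and 10.5 ± 1.49 CPM in control (1.54, SE 0.151). Birc5 (1.25, SE 0.135), Ccna2 (1.45, SE 0.167), Ccnb2 (1.39, SE 0.157) and Cdc20 (1.21, SE 0.13) rose as well. Ccnd1, the cyclin that growth factors induce before S phase, went the other way, with 256, 244, 247 and 269 CPM in fenofibrate libraries, against 408, 390.1, 408 and 417 CPM in control libraries (log2 fold change -0.68, SE 0.0548, adjusted p = 7.9e-08). The others that fell, Cdkn1a and Tpx2, were named after their values were seen (-0.24, SE 0.0782 and -0.62, SE 0.14). Cdkn1a was not called without fenofibrate library 3 or 4 or control library 1 (-0.21 to -0.19).

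Many glycolysis and lysosomal genes rose. In the list of glycolysis and hypoxia response 27 of 38 rose and 2 fell (26 and 1 without control library 1; median 0.40). Aldoc, an aldolase, had 42.3, 57.7, 57.2 and 46.1 CPM in fenofibrate libraries, against 13.5, 18.01, 19.4 and 13.6 CPM in control libraries, with no overlap (log2 fold change 1.66, SE 0.122, adjusted p = 4.5e-08). Mxi1 (1.11, SE 0.0663), Egln1, an oxygen sensor (0.68, SE 0.0522), and Pdk1, which restrains pyruvate oxidation (0.73, SE 0.0745), rose, while Pfkfb3 fell (-0.57, SE 0.0645). Of 49 lysosomal genes and TFEB targets, 26 rose and 6 fell (median 0.23). Psap, the saposin precursor and one of the most abundant transcripts, had 21739 ± 1376 CPM with fenofibrate and 14102 ± 478 CPM in control (0.62, SE 0.0617), and the hydrolase genes Hexa (0.66, SE 0.0609) and Gusb (0.69, SE 0.061) rose. Mitf, a relative of TFEB, fell (-0.64, SE 0.0718). Of 34 autophagy genes, 9 rose and 11 fell.

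Stress lists were mixed. Of 25 endoplasmic reticulum chaperones, 14 rose and 1 fell (9 and 1 without fenofibrate library 1 or without control library 4). P4hb, a disulfide isomerase, had 1073 ± 39.98 CPM with fenofibrate and 698 ± 12.5 CPM in control (0.62, SE 0.0431), Herpud1 was at 0.62, SE 0.0473, and Hspa5, the main chaperone of the compartment, was not called (2093 ± 104.7 CPM with fenofibrate and 2008 ± 79.5 CPM in control). Of 40 genes of the ATF4 amino acid response, 14 rose and 6 fell (18 and 10 with a replicate block; median 0.08). The asparagine synthetase gene Asns had 78.9, 102, 96.3 and 95.8 CPM in fenofibrate libraries, against 90.9, 90.7, 87.3 and 101 CPM in control libraries. The groups overlapped, and Asns did not pass the threshold (log2 fold change 0.01, SE 0.183, adjusted p = 0.971). Neither did Trib3 (30.7 ± 5.43 CPM with fenofibrate and 33.5 ± 1.81 CPM in control), Chac1 (3.70 ± 0.376 CPM with fenofibrate and 3.92 ± 0.38 CPM in control) or Ddit3 (44.3 ± 9.92 CPM with fenofibrate and 53.4 ± 3.08 CPM in control), of which Ddit3 was called without fenofibrate library 2 (-0.44). Atf3 (-0.67, SE 0.0601) and Nupr1 (-1.07, SE 0.122), stress-induced factors, fell. Among 37 NRF2 and antioxidant targets, 12 rose and 5 fell (16 and 8 with a replicate block). The glutathione transferase Gstm1 (1.27, SE 0.184), the ferritin light chain Ftl1 (0.45, SE 0.0849) and the iron exporter Slc40a1 (1.73, SE 0.224) rose, and Hmox1 (299 ± 18.6 CPM with fenofibrate and 350.2 ± 13.3 CPM in control), Nqo1 (2.23 ± 0.237 CPM with fenofibrate and 2.11 ± 0.0748 CPM in control) and Gclm (83.7 ± 9.86 CPM with fenofibrate and 64.1 ± 4.14 CPM in control) were not called. Hmox1 was called with a replicate block, in the Irgm1KO libraries alone and with Xist as a covariate (-0.24 to -0.23), and Gclm with a replicate block and in the Irgm1KO libraries alone (0.38 to 0.39).

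The largest rises outside these lists were in genes of varied function. Igfbp4, which binds insulin-like growth factors, had 39.3, 37.3, 36.9 and 36.4 CPM in fenofibrate libraries, against 5.86, 6.50, 8.18 and 6.41 CPM in control libraries. The groups were far apart (log2 fold change 2.48, SE 0.114, adjusted p = 9.8e-10). Nxpe5 had 20.3 ± 3.12 CPM with fenofibrate and 4.43 ± 0.724 CPM in control (2.198, SE 0.153), the sorting receptor Sort1 19.4 ± 4.62 CPM with fenofibrate and 4.72 ± 0.96 CPM in control (2.04, SE 0.177), the sialic acid receptor Cd33 21.7 ± 5.60 CPM with fenofibrate and 5.50 ± 0.849 CPM in control (1.98, SE 0.284), and Ifi27, an interferon-inducible gene that was not in the list, 22.5 ± 4.87 CPM with fenofibrate and 5.07 ± 0.963 CPM in control (2.15, SE 0.161). Ak4, a mitochondrial adenylate kinase (2.105, SE 0.235), Kctd12b (1.83, SE 0.176) and Depdc1b (2.02, SE 0.142) rose too. Mt2, a metal-binding metallothionein, had 17.6 ± 2.72 CPM with fenofibrate and 4.98 ± 0.313 CPM in control (log2 fold change 1.82, SE 0.211, adjusted p = 5e-06).

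Its window (chr8:94172368-94172617, plus strand) holds TGACTCAGC, in capitals, which matches both the antioxidant response element core (TGACNNNGC) and an AP-1 site, 79 bases before the transcript start.
Mt2: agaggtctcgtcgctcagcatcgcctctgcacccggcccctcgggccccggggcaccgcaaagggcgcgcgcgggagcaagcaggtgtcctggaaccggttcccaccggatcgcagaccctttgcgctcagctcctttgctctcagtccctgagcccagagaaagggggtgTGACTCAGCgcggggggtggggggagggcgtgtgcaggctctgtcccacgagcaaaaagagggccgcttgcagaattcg
That core was in 14.1% of tested genes and in 15.2% of genes raised over 2-fold. ATF4 and C/EBP elements (TGATGNAA) were in 2.50% of tested genes and in 2.62% of genes raised over 2-fold. Among the largest falls outside the lists were Fpr2, a receptor for formyl peptides (0.903 ± 0.142 CPM with fenofibrate and 11.5 ± 4.02 CPM in control, -3.68, SE 0.303), and Cd300e, a myeloid surface receptor (3.82 ± 0.678 CPM with fenofibrate and 39.3 ± 9.40 CPM in control, -3.37, SE 0.295).

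The cells kept macrophage transcripts in both groups. Of 11 tested macrophage markers, 2 rose and 5 fell, with a median log2 fold change of -0.23. The largest fall was in Fcgr1 (574 ± 58.0 CPM with fenofibrate and 1102 ± 95.1 CPM in control, -0.94, SE 0.111). Spi1 (-0.51, SE 0.067) and Cd14 (-0.44, SE 0.14) fell too. Fcgr1, Spi1 and Cd14 are not among the 201 genes counted below. Adgre1, which encodes a surface glycoprotein of macrophages, had 889 ± 72.9 CPM with fenofibrate and 1029 ± 22.7 CPM in control (-0.21, SE 0.071), and was not called without fenofibrate library 3, control library 1 or pair 3 (-0.22 to -0.20). The growth factor receptor Csf1r had 1837 ± 49.9 CPM with fenofibrate and 2565 ± 96.9 CPM in control (-0.48, SE 0.0582), Cd68 2066 ± 315 CPM with fenofibrate and 1389.5 ± 98.5 CPM in control (0.57, SE 0.097) and lysozyme, Lyz2, 10610.0 ± 1566 CPM with fenofibrate and 5353 ± 950.2 CPM in control (0.99, SE 0.197). Monocyte markers were lower: 5 of 7 fell and none was at 0, with the whole list summing to between 31.7 and 76.0 CPM in fenofibrate libraries and between 97.4 and 175.3 CPM in control libraries. Among others, F10 (-2.06, SE 0.202), Plac8 (-1.85, SE 0.549), Vcan (-1.77, SE 0.111) and Ly6c2 (-1.31, SE 0.353) fell, and Ccr2 (20.3 ± 12.1 CPM with fenofibrate and 30.7 ± 9.62 CPM in control) and Fn1 (0.821 ± 0.255 CPM with fenofibrate and 0.857 ± 0.298 CPM in control) were not called. Plac8 was not called without control library 1 (-1.51), and Ccr2 was called with a replicate block (-0.70) and without fenofibrate library 1 (-1.12). These markers moved with the interferon and cytokine lists, and their part in those results was not tested.

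Among markers of other cells, some endothelial, dendritic cell and osteoclast markers were well detected. Of 4 tested endothelial markers 1 rose and 2 fell, and they summed to between 93.8 and 154.6 CPM in fenofibrate libraries and between 189.9 and 263.4 CPM in control libraries. Most of that was Kdr, a receptor for vascular endothelial growth factor, which fell (36.5 ± 4.64 CPM with fenofibrate and 186 ± 43.02 CPM in control, -2.34, SE 0.198), and Vwf, which encodes von Willebrand factor and rose (90.8 ± 23.04 CPM with fenofibrate and 45.1 ± 12.2 CPM in control, 1.01, SE 0.25). The defining markers Cdh5 (0.177 ± 0.0783 CPM with fenofibrate and 0.501 ± 0.0692 CPM in control, a fall) and Pecam1 (1.34 ± 0.363 CPM with fenofibrate and 1.01 ± 0.277 CPM in control, not called) were low, and Emcn held 0 counts over the 16 libraries. Of 6 tested dendritic cell markers 3 fell, with sums of 56.5 to 73.2 CPM in fenofibrate libraries and 55.7 to 62.1 CPM in control libraries, nearly all of it Clec9a, which was not called (61.3 ± 7.57 CPM with fenofibrate and 53.7 ± 1.69 CPM in control). Of 5 tested osteoclast markers 2 rose and 1 fell, with sums of 137 to 179 CPM in fenofibrate libraries and 117 to 125 CPM in control libraries, mostly Nfatc1, which was not called (81.5 ± 4.75 CPM with fenofibrate and 78.8 ± 3.89 CPM in control), and Ocstamp, which rose (59.04 ± 19.96 CPM with fenofibrate and 30.4 ± 6.65 CPM in control, 0.96, SE 0.292). Ocstamp was not called without fenofibrate library 2 or control library 4 or with no filter on low counts (0.70 to 0.96). The part of these markers in the other results was not tested. The remaining lists held less. Neutrophil markers rose in 1 of 2, the single tested megakaryocyte marker rose, and the single mast cell and basophil marker fell. None of the tested T and NK cell (2), B and plasma cell (3) or stromal (3) markers was called, and no erythroid or adipocyte marker passed the filter. The stromal marker Col1a1 held 0 CPM in every Irgm1KO library. Col1a2 and the neutrophil marker S100a9 averaged at most 0.0107 CPM in either Irgm1KO group. They passed the filter through WT libraries, so their lack of a call carries no information. The stromal marker Cxcl12 and the B cell marker Vpreb1 averaged at most 0.125 CPM in either Irgm1KO group, so theirs carries little. These genes are not among the 201 counted below.

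Alternative activation markers were close to the background, with 4 rises and 3 falls in 17 (7 and 3 with a replicate block). Among them were the mannose receptor Mrc1 at 1.61, SE 0.312, Cd163 at 1.99, SE 0.314, Klf4 at -1.11, SE 0.211 and Arg1, which was scarce, at -1.17, SE 0.27. Of 19 complement genes, 2 rose and 7 fell (1 rise without fenofibrate library 2 or 4 or control library 1 or 4), with C3 at 1398 ± 212 CPM with fenofibrate and 2814 ± 231 CPM in control (-1.01, SE 0.138) and the receptor C3ar1 at 849 ± 20.4 CPM with fenofibrate and 1566 ± 32.3 CPM in control (-0.88, SE 0.0805). Of 21 eicosanoid genes 9 rose and 7 fell, with the leukotriene enzymes Lta4h (0.53, SE 0.0494) and Ltc4s (1.39, SE 0.148) higher and the prostaglandin receptor Ptger4 lower (-0.80, SE 0.0877).

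The response in WT cells was used to ask where the Irgm1KO response differed. In WT, 2794 genes were called higher (18.1%) and 2613 lower (16.9%), 5407 in all (35.0%). Of the calls, 3142 genes were called in both genotypes, 44.5% of the Irgm1KO calls and 58.1% of the WT calls, 2606 of them in the same direction and 536 in opposite directions. A test of the difference itself (the fold change in Irgm1KO minus that in WT) called 2304 genes positive (14.9%) and 2261 negative (14.7%), 4565 in all (29.6%). Interferon-stimulated genes were more negative in Irgm1KO for 54 of 64 members and more positive for 1. Mx1 illustrates the levels, with 39.9 ± 6.90 and 428 ± 70.6 CPM in Irgm1KO fenofibrate and control libraries and 18.5 ± 4.69 and 30.8 ± 4.48 CPM in WT fenofibrate and control libraries. The difference in log2 fold change was -2.69, SE 0.248, adjusted p = 2.9e-06. Cytokines were more negative in 16 of 38 members and more positive in 3, and NF-kB genes were more negative in 9 of 28 and more positive in 1. Tnf fell in both genotypes, and its difference did not pass the threshold (-0.16, SE 0.119, adjusted p = 0.342).

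Other lists differed in size or in direction. Heat-shock chaperones were more negative in Irgm1KO for 18 of 21 members, and the cholesterol list was more positive for 21 of 29. Sqle had 16.6 ± 1.93 CPM with fenofibrate and 14.1 ± 2.66 CPM in control in WT (log2 fold change 0.24, SE 0.127, adjusted p = 0.162), and the difference was 1.53, SE 0.181, adjusted p = 1.9e-05. All 7 mitochondrially encoded transcripts differed, and their share was 1.39%, 1.23%, 1.29% and 1.11% in WT fenofibrate libraries, against 1.53%, 1.73%, 1.83% and 1.83% in WT control libraries. Proliferation genes were more positive in 26 of 42 members and more negative in 3. Most members of 2 of these lists were not called within WT. Of the cholesterol list 2 rose, 9 fell and 18 were not called there, and of the proliferation list 8 rose, 3 fell and 31 were not called. Endoplasmic reticulum chaperones were more positive in 20 of 25 and more negative in 1.

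The ATF4 list showed the opposite contrast, with 31 of 40 members more negative in Irgm1KO and 2 more positive. Asns had 77.2 ± 20.01 CPM with fenofibrate and 17.1 ± 4.93 CPM in control in WT (log2 fold change 2.18, SE 0.193, adjusted p = 2.1e-06), a difference of -2.17, SE 0.264, adjusted p = 3.5e-05, and the WT control level was the low one of the 4 groups. Trib3 rose in WT (log2 fold change 3.596, SE 0.3, adjusted p = 1.6e-06), and so did Chac1 (log2 fold change 2.87, SE 0.236, adjusted p = 7.2e-07) and the amino acid transporter Slc7a5 (log2 fold change 2.44, SE 0.164, adjusted p = 3.2e-07), which fell in Irgm1KO (-0.79, SE 0.149). NRF2 targets were more negative in 11 of 37 members and more positive in 4. PPAR targets were more positive in 11 of 32 and more negative in 3, with Plin2 rising in WT (log2 fold change 0.30, SE 0.0846, adjusted p = 0.0102) and differing by -0.52, SE 0.12, adjusted p = 0.00358. Fabp5 rose in both genotypes, and its difference did not pass the threshold (0.39, SE 0.173, adjusted p = 0.11).

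The genes with the largest differences are given by the rule for naming. On the positive side they included Hpgd, which degrades prostaglandins (3.48, SE 0.786, adjusted p = 0.00416), Nxpe5 (3.35, SE 0.21, adjusted p = 8.9e-08), Igfbp4 (2.82, SE 0.154, adjusted p = 3.4e-08), the integrin Itga1 (2.803, SE 0.291, adjusted p = 7.5e-06) and Fads2 (2.62, SE 0.378, adjusted p = 0.00012). Hpgd was not called within Irgm1KO (0.887 ± 0.214 CPM with fenofibrate and 0.31 ± 0.0756 CPM in control), except with a replicate block, in the Irgm1KO libraries alone, with Xist as a covariate or with the DESeq2 Wald test (1.51 to 1.52), and its WT libraries held 2.31 ± 1.62 CPM with fenofibrate and 8.99 ± 5.63 CPM in control. On the negative side were Hspa1b (-4.66, SE 0.388, adjusted p = 1.6e-06), Cox6a2, a tissue-restricted complex IV subunit that reached 10.1 ± 5.37 CPM with fenofibrate and 0.232 ± 0.0632 CPM in control in WT (-4.46, SE 0.436, adjusted p = 4.7e-06), Hspa1a (-4.18, SE 0.366, adjusted p = 2e-06), Trib3 (-3.72, SE 0.394, adjusted p = 1.4e-05), Slc7a5 (-3.23, SE 0.221, adjusted p = 1.9e-07) and Cxcl11 (-3.15, SE 0.374, adjusted p = 3.2e-05).

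**Figure D5:**
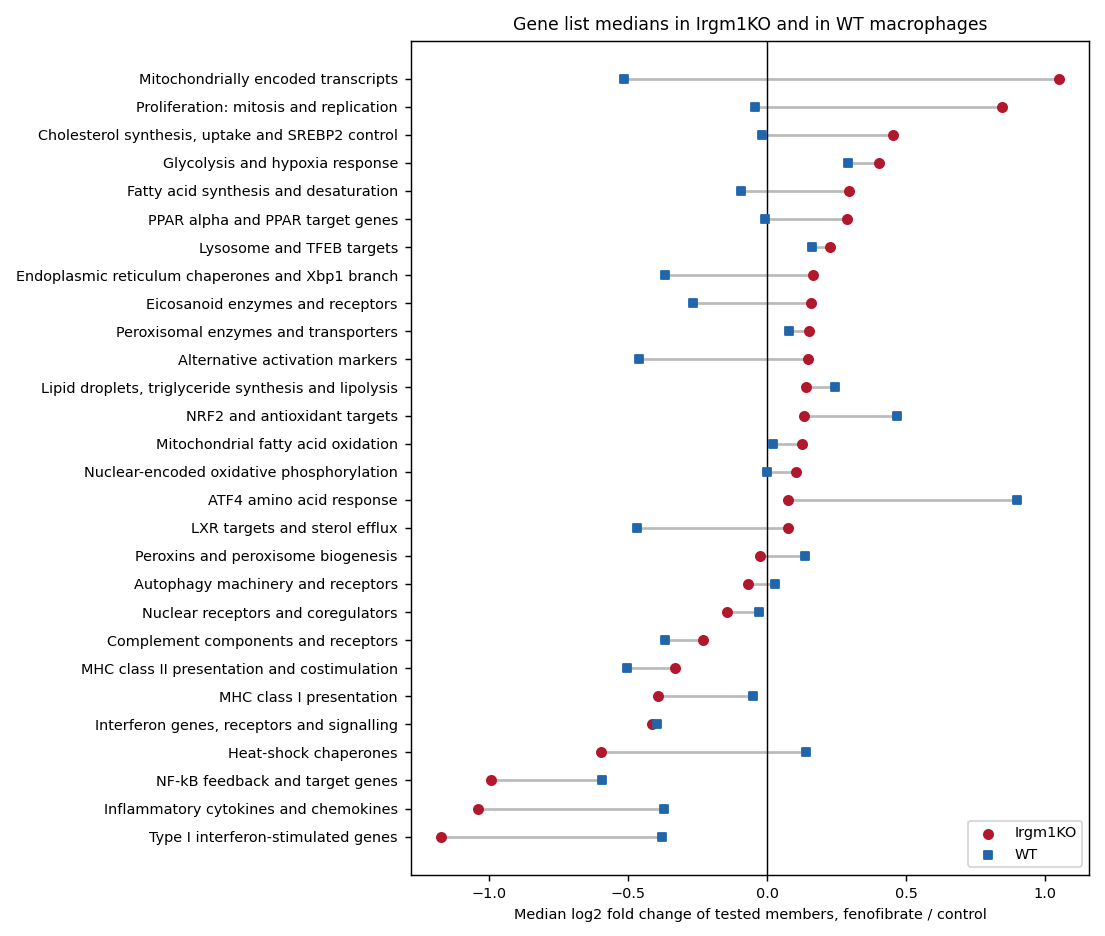
Median log2 fold change of fenofibrate over control for 28 gene lists in Irgm1KO (circles) and WT (squares) cells, joined by a line. Mitochondrially encoded transcripts (1.05 in Irgm1KO, -0.52 in WT) and the ATF4 list (0.08 in Irgm1KO, 0.90 in WT) show the widest gaps in opposite directions.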

How the data were processed

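RNA-seq of bone marrow-derived macrophages was deposited by the authors as a table of raw counts per gene, with no normalization. Per the submitters' processing notes, reads were handled with fastp, STAR and DESeq2 on GRCm39, without versions. Per the labels' protocols, libraries were made from RNeasy RNA with the Kapa mRNA HyperPrep kit and read for 50 cycles. For the counting tool, strand setting and annotation release nothing is stated in the labels, so overlapping and antisense genes may share reads.

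The 16 libraries of the second experiment of the series, 4 in each of 4 groups, entered one fit in edgeR 4.0.16 (R 4.3.3). Genes passed filterByExpr (minimum count 10, minimum total 15) over all 16 libraries, so a gene could pass through its WT level alone. With the Irgm1KO libraries alone, 14663 genes passed, of which 3318 were called higher and 3118 lower. TMM scaling and a robust quasi-likelihood fit without covariates were followed by Benjamini-Hochberg adjustment over 15429 genes, with a threshold of 0.05. SE is the absolute log2 fold change divided by the root of F, and CPM uses the scaled library size. On simulated data of 15203 genes, the comparison recovered 97 of 100 genes changed 2-fold and 81 of 100 changed 1.5-fold, with 7 false calls. The simulated libraries were unpaired draws with the fit's own spread. Far fewer genes changed in them than were called in the data, and genes of the lowest levels were not among those changed. The recovery and false calls hold for that setting only. Same-numbered fenofibrate and control libraries deviated together (correlations of 0.31 to 0.756 in Irgm1KO and 0.564 to 0.845 in WT). The title numbers were therefore taken to pair them, but only where a pair or a replicate block is named. The main fit had no term for pairs, so its SE and adjusted p treat the libraries as unpaired. Its estimate of spread (biological coefficient of variation) was 0.12, against 0.0674 with the replicate block.

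The 28 pathway lists and the 13 marker lists were chosen with earlier results of these data known; 920 entries gave 902 matches by symbol and 17 by synonym, and 1 did not match. Genes are named by rule: the 12 largest rises and the 12 largest falls with at least 5 CPM and no overlap, up to 8 members a list with the smallest p, a fixed set, markers, and the 6 largest differences between genotypes in each direction. Genes outside the rule are said to be so, and some genes that the rule names are not reported here. Gene symbols and promoter windows came from RefSeq tables; the windows are on GRCm38.p6, not the build of the counts, and were used for sequence only. Alternatives covered scaling, filtering, DESeq2 1.42.0, a replicate block, Irgm1KO libraries alone, log2 Xist as a covariate, the most abundant gene left out, and each library left out in turn. Leaving out pair 3 was added after seeing the data.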

Additional observations from a re-analysis of the deposited data

Results flagged for a closer look

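A single library stood apart from the other 3 of its group for 20 of the 404 groups of 4 values examined (4.95%, where chance gives about 1 in 20). In fenofibrate library 1, these were Pecam1 at 1.88 CPM and Cd274 at 532 CPM. In fenofibrate library 2, these were Atf3 at 222 CPM, Slc40a1 at 21.3 CPM, Cyp51 at 28.0 CPM, Mitf at 47.0 CPM and Irf5 at 307 CPM. The same library held Cd33 at 13.3 CPM, Psmb9 at 178 CPM, Tap2 at 319 CPM and H2-Q4 at 263 CPM. Fenofibrate library 2 thus held 9 of the 20, which the pooled share does not show. In fenofibrate library 4, this was Srebf2 at 116 CPM. In control library 1, these were Fabp5 at 118 CPM, Ccr2 at 45.1 CPM and Birc5 at 14.3 CPM. In control library 2, this was Acsl1 at 1070 CPM. In control library 3, these were F10 at 19.1 CPM and Nos2 at 186 CPM. In control library 4, these were Hspa8 at 4360 CPM and Vegfa at 67.6 CPM.

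The mitochondrially encoded share differed in direction between the genotypes. It was 0.662 percentage points higher with fenofibrate than in control in Irgm1KO (4 of 4 pairs higher), and a difference of -0.473 in WT (4 of 4 pairs lower). The difference between these differences of the share was not tested. Over all tested genes, the edgeR interaction test called 4565 (29.6%). The genes named here were chosen in part for large changes or large differences, so their share is not comparable with that. Of the 201 genes named here, 146 had a called difference in response between the genotypes (edgeR's quasi-likelihood interaction test, adjusted p below 0.05), given below as the log2 fold change in Irgm1KO minus that in WT.

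Among PPAR alpha and PPAR target genes, Plin2 differed by -0.52, Slc25a20 by -0.24, Etfdh by 0.20, Hadhb by 0.48, Acot1 by 1.54 and Fads2 by 2.62. Among nuclear receptors and coregulators, Nr1h3 differed by -1.10 and Ppard by 0.37. Among mitochondrial fatty acid oxidation, Acsl1 differed by -0.89. Among peroxisomal enzymes and transporters, Idh1 differed by 0.63 and Hsd17b4 by 0.75. Among cholesterol synthesis, uptake and SREBP2 control, Mylip differed by -0.82, Insig1 by 0.69, Srebf2 by 0.84, Fdft1 by 0.86, Fdps by 1.21, Cyp51 by 1.42, Sqle by 1.53 and Stard4 by 1.97. Among LXR targets and sterol efflux, Srebf1 differed by 0.22, Abca7 by 1.12 and Scd2 by 2.40. Among fatty acid synthesis and desaturation, Fads1 differed by 0.72, Fads3 by 0.76, Acaca by 0.88 and Fasn by 1.38. Among lipid droplets, triglyceride synthesis and lipolysis, Dgat2 differed by -1.16 and Lpin1 by 1.08. Among interferon-stimulated genes, Mx1 differed by -2.69, Mx2 by -2.52, Ms4a4c by -2.17, Oasl1 by -1.95, Isg15 by -1.63, Irf7 by -1.47, Ifit1 by -1.35, Herc6 by -1.20 and Daxx by -1.03. Cxcl10 differed by -0.88, Trim25 by -0.88, Nmi by -0.78, Tor3a by -0.77 and Iigp1 by 0.33.

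Among interferon genes, receptors and signalling, Ifnb1 differed by -2.79, Tlr3 by -0.96, Jak2 by -0.37, Irf5 by -0.29 and Irf8 by 0.49. Among inflammatory cytokines and chemokines, Cxcl11 differed by -3.15, Il1rn by -2.29, Ccl7 by -1.65, Nos2 by -1.55, Ccl5 by -1.50, Ccl2 by -1.01, Il15 by -0.76, Ptgs2 by 0.85 and Ccl6 by 0.96. Among NF-kB genes, Gadd45b differed by -1.14, Cd40 by -0.89, Sod2 by -0.76, Junb by -0.67, Traf2 by -0.48 and Nfkbia by -0.40. Among ATF4 amino acid response, Trib3 differed by -3.72, Slc7a5 by -3.23, Chac1 by -2.96, Asns by -2.17, Nupr1 by -1.75, Ddit3 by -1.66 and Atf3 by -1.05. Among endoplasmic reticulum chaperones and Xbp1 branch, Hspa5 differed by 0.69, P4hb by 0.70, Calr by 0.76 and Herpud1 by 1.04. Among NRF2 and antioxidant targets, Nqo1 differed by -1.15. Among glycolysis and hypoxia response, Pdk1 differed by 0.35, Egln1 by 0.60, Mxi1 by 0.73 and Aldoc by 1.51. Among mitochondrially encoded transcripts, mt-Nd6 differed by 1.22, mt-Co1 by 1.34, mt-Nd1 by 1.36, mt-Nd2 by 1.36, mt-Nd5 by 1.73, mt-Nd4 by 1.77 and mt-Cytb by 1.87. Among nuclear-encoded oxidative phosphorylation, Cycs differed by -0.44 and Cox7b by 0.70.

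Among lysosome and TFEB targets, Psap differed by 0.31, Hexa by 0.57 and Gusb by 0.98. Among heat-shock chaperones, Hspa1b differed by -4.66, Hspa1a by -4.18, Hsph1 by -1.51, Dnaja1 by -1.15, Hsp90aa1 by -1.04, Hsp90ab1 by -0.89, Hspa8 by -0.89 and Dnajb1 by -0.56. Among proliferation: mitosis and replication, Rrm2 differed by 1.27, Birc5 by 1.31, Kif23 by 1.36, Ccna2 by 1.46, Ccnb2 by 1.58, Cdc20 by 1.76 and Plk1 by 1.91. Among alternative activation markers, Klf4 differed by -2.05, Mrc1 by 2.18 and Cd163 by 2.89. Among MHC class I presentation, H2-Q6 differed by -2.06, H2-Q7 by -1.85, H2-Q4 by -0.91, Psmb9 by -0.47, Tap2 by -0.47 and Nlrc5 by -0.42. Among MHC class II presentation and costimulation, Cd86 differed by -0.98, Cd274 by -0.65 and Cd74 by 0.50. Among complement components and receptors, C3 differed by -0.93. Among eicosanoid enzymes and receptors, Lta4h differed by 0.50, Ltc4s by 1.07 and Hpgd by 3.48. Among genes and markers outside the pathway lists, Cox6a2 differed by -4.46, Apol9b by -3.11, Isg20 by -3.08, Apol9a by -2.76, Cd300e by -2.59, Kdr by -2.40, Hsh2d by -2.36, F10 by -1.88 and Fpr2 by -1.21. Vcan differed by -0.90, Nfatc1 by 0.23, Adgre1 by 0.42, Clec9a by 1.22, Ocstamp by 1.27, Ifi27 by 1.48, Lyz2 by 1.51, Pecam1 by 1.52 and Depdc1b by 1.83. Cd33 differed by 1.84, Ccr2 by 1.90, Kctd12b by 2.04, Sort1 by 2.38, Itga1 by 2.80, Igfbp4 by 2.82 and Nxpe5 by 3.35.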

How the results depend on the processing

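Counts of called genes over all tested genes stayed within 1.5 times the reported count under every alternative tried, counts within lists that moved further are given with them above, and no named gene's called change turned direction. Genes called higher and lower numbered 3447 and 3605 with DESeq2 size factors, 3869 and 3146 with upper-quartile scaling, 3547 and 3703 with the DESeq2 Wald test, and 3149 and 2892 without pair 3. Leaving out single libraries gave 3105 to 3535 higher and 3035 to 3867 lower. Without fenofibrate library 2, calls rose to 6253 in WT and to 5451 for the difference between genotypes, against 5407 and 4565 in the main fit. The replicate block gave 4168 higher and 4007 lower, 6746 calls in WT and 5915 for the difference between genotypes, and beyond the genes and lists given with their results above it changed no other named gene's call within Irgm1KO. Of 201 named genes, 178 kept their call and direction in every alternative. The mitochondrially encoded share differed by 0.624 to 0.69 percentage points when single libraries were left out and by 0.702 without the most abundant gene. It was 0.661 without pair 3 (exact p = 0.1) and 0.662 in the replicate block (exact sign-flip p = 0.125), designs in which no smaller p can be had. At the depth of these libraries, genes such as Ppara with a handful of counts could not be compared.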
